A study of Oryctolagus cuniculus with 6 samples.

Results

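The genes described here are 10 hypoxia and angiogenesis genes that are relevant to the limbus, the border between the avascular cornea and the vascularised conjunctiva. They were taken by symbol from the deposited table, and all 10 of the 10 symbols were present among its 22190 genes. They comprise the hypoxia-inducible factor (HIF) alpha subunits HIF1A, EPAS1 and HIF3A, the HIF target genes CA9, ADM and BNIP3, the growth factors VEGFA and VEGFC, the receptor FLT1 and the angiogenesis inhibitor THBS1. All 10 passed the filter on low counts and were tested, although HIF3A and FLT1 had few counts. Of the 10, 10 carried an NCBI gene identifier with the same symbol in a table of rabbit genes.

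RNA-seq was carried out on primary limbal stem cells (LSCs) that had grown out of rabbit limbal explants. The fresh group held 3 libraries from explants of unfrozen corneas, and the preconditioned group held 3 libraries from corneas stored for 1 week in liquid nitrogen before explant culture, with the inflammatory cytokine IL-1β at 10 ng/mL in their cryomedium. Cryomedium, freezing, thawing and IL-1β were applied together and cannot be told apart, and no library of frozen corneas lacking IL-1β was analysed here. Strain, age and donor of each library are not given in the sources used here, so the p values measure only the spread between these libraries, which may be partly technical. In bulk RNA, a smaller number of cells of one type and less RNA per cell cannot be told apart.

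Oxygen controls the HIF alpha subunits mainly after translation. Prolyl hydroxylases mark HIF-1α and HIF-2α (encoded by EPAS1) for degradation by the VHL ubiquitin ligase when oxygen is present, and in hypoxia the subunits accumulate, pair with ARNT and activate genes such as VEGFA, CA9, ADM and BNIP3. The transcript level of a HIF gene is therefore not a measure of HIF activity. In the cornea, VEGFA drives ingrowth of blood vessels and VEGFC that of lymphatic vessels, whereas soluble FLT1, which traps VEGFA, and thrombospondin 1, encoded by THBS1, are among the factors known to keep the cornea free of vessels. The counts are per gene, so that soluble and membrane-bound FLT1 and the isoforms of VEGFA are not distinguished.

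The libraries held 31952352 to 34327534 counts on genes, of which the 10 genes took 0.251% to 0.390%. The levels of KRT5, a basal epithelial keratin, were 7337 to 11740 CPM (counts scaled to a common library size with edgeR's TMM factors), and those of TP63, a limbal progenitor factor, were 226 to 246 CPM in the fresh and 112 to 183 CPM in the preconditioned libraries, with no overlap (log2 fold change −0.77, adjusted p = 0.059 by edgeR). Of the 11 epithelial genes found, none was called and 3 did not overlap (27.3%, below the 36.7% of all tested genes), TP63 (lower) and EPCAM and ITGB4 (higher, log2 fold changes 0.50 and 0.63, adjusted p = 0.060 and 0.071 by edgeR). The part of these differences in the values of the 10 genes was not tested. KRT14 and KRT12 were not found under these symbols. Of the 14 endothelial genes found, 9 did not pass the filter on low counts and 5 did. TEK had at most 1 count in each library, CDH5 at most 7 and VWF at most 8, whereas PECAM1 had 29 to 400 counts, EMCN 19 to 137, PROX1 6 to 42, ERG 7 to 32 and EGFL7 4 to 20. KDR, the main signalling receptor of VEGFA, had 5, 0 and 6 counts in the fresh libraries and 1, 0 and 0 in the preconditioned ones. The first principal component (57.5% of the variance) placed the fresh libraries between −35.2 and −26.0 and the preconditioned replicates 1, 2 and 3 at 1.29, 39.3 and 47.8, so that preconditioned replicate 1 stood nearest to the fresh group.

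A gene was called where edgeR's quasi-likelihood test gave an adjusted p up to 0.05 with a change of 1 or more on the log2 scale in either direction. None of the 10 genes was called, where 2.29% of the 15029 tested genes were called (1.08% higher and 1.20% lower in the preconditioned group). BNIP3 had an adjusted p of 0.048 in this test, under 0.05, but a log2 fold change below 1. Of all tested genes, 5.08% reached this adjusted p at any fold change. At an unadjusted p of at most 0.05, 2 of the 10 genes were found, BNIP3 and HIF1A, against 30.6% of all tested genes. The Wald test of DESeq2, run as an alternative, called 1 of the 10 genes, THBS1 (log2 fold change 1.27, DESeq2 adjusted p = 0.047), where it called 7.78% of the 15293 genes for which it gave an adjusted p. The log2 fold changes were positive for 8 genes, where 50.5% of all tested genes were positive, and negative for VEGFA and VEGFC, although EPAS1 and CA9, at 0.03 and 0.02, turned negative when scaled by the total count alone. Their median was 0.40, where that of all tested genes was 0.01. The preconditioned libraries all lay above the fresh libraries for BNIP3 and HIF1A and overlapped with them for the other 8, where 36.7% of all tested genes did not overlap. With 10 genes, the counts of called and of non-overlapping genes stood within 1 gene of the share of all genes or below it.

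**Figure D1:**
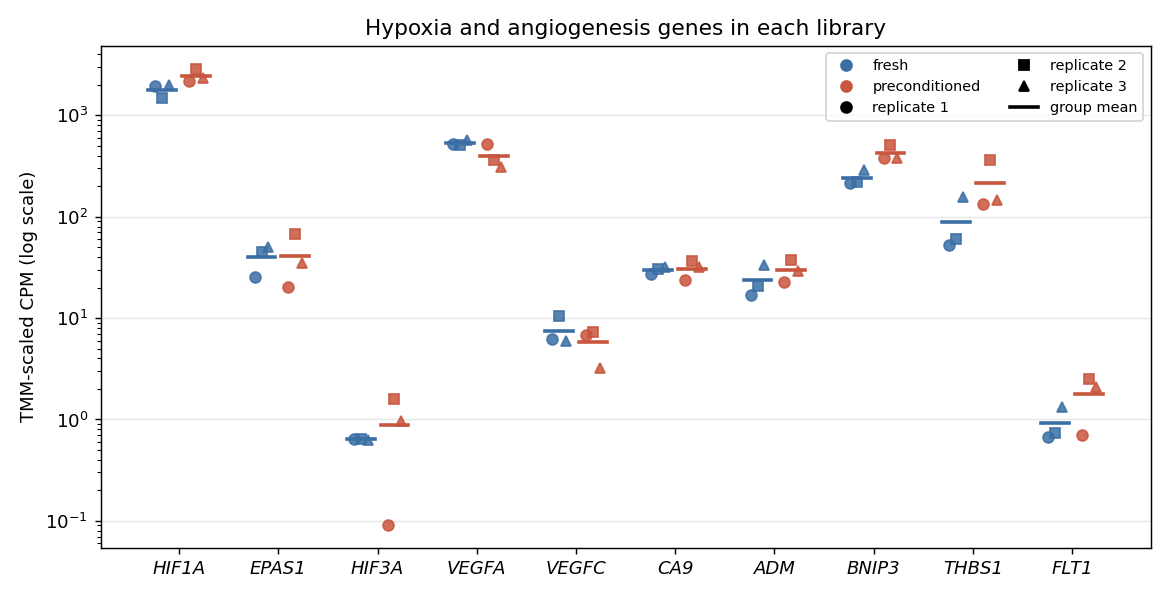
TMM-scaled CPM of the 10 genes on a log axis, with 1 point per library (circle, square and triangle for replicates 1, 2 and 3; blue fresh, red preconditioned) and a bar at each group mean. BNIP3 and HIF1A show no overlap between the groups. Relative to the mean, the preconditioned libraries are the more scattered for EPAS1, HIF3A, VEGFA, VEGFC, CA9 and FLT1, and the less scattered for HIF1A, ADM, BNIP3 and THBS1.

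The 3 HIF alpha genes were expressed at very different levels. FPKM, which the authors computed from the counts with 1 length per gene, was used to compare genes with each other. HIF1A was the most abundant of the 10 genes, with 484 ± 76.7 FPKM in the fresh group and 587 ± 71.8 FPKM in the preconditioned group (SD, n = 3 each), and it ranked 147 of the 15029 tested genes by mean FPKM. EPAS1 was far lower, with 8.34 ± 2.78 and 7.46 ± 4.18 FPKM (SD, n = 3 each), and HIF3A was lower still, with 0.151 ± 0.0019 and 0.183 ± 0.154 FPKM (SD, n = 3 each).

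HIF1A encodes the broadly expressed subunit HIF-1α. Its level was 1934, 1470 and 1987 CPM in fresh replicates 1, 2 and 3, and 2176, 2882 and 2318 CPM in preconditioned replicates 1, 2 and 3. The groups did not overlap on this scale, but in FPKM, which is scaled by the total count alone, fresh replicate 3 (537) lay above preconditioned replicate 1 (533). The log2 fold change was 0.45 (95% interval 0.05 to 0.86, standard error 0.17), with an adjusted p of 0.13 in edgeR's quasi-likelihood test.

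EPAS1 encodes HIF-2α, which is prominent in endothelium and other specialised cells. Its level was 25.2, 44.6 and 50.5 CPM in the fresh libraries and 20.4, 67.2 and 34.7 CPM in the preconditioned libraries. Both the lowest and the highest value were from preconditioned cells, and the group means, 40.1 ± 13.2 and 40.8 ± 24.0 CPM (SD, n = 3 each), differed by less than the spread between libraries. The log2 fold change was 0.03 (95% interval −1.05 to 1.10, adjusted p = 0.98 by edgeR), an interval that reaches both fold change cutoffs.

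HIF3A encodes a subunit whose variants can restrain the other HIFs. It had 22, 23 and 23 counts in the fresh libraries and 3, 50 and 29 counts in the preconditioned libraries. The fresh libraries were nearly equal, and the preconditioned libraries fell on both sides of them. Its log2 fold change was 0.46 with a 95% interval from −1.44 to 2.37 (adjusted p = 0.73 by edgeR), the widest interval of the 10 genes.

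The ratio of HIF1A to EPAS1 counts within a library does not depend on scaling between libraries. It was 76.7, 33.0 and 39.4 in the fresh libraries and 106, 42.9 and 66.7 in the preconditioned libraries. The groups overlapped, and the mean log2 ratio differed by 0.54 (exact permutation test, 2-sided, p = 0.40, n = 3 each, adjusted p over the 3 ratios tested = 0.40). With 3 libraries against 3, the smallest p that this test can give is 0.1.

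Of the HIF targets CA9, ADM and BNIP3, BNIP3 had the lowest p. It encodes a mitochondrial protein that takes part in the removal of mitochondria in hypoxia. Its level was 217, 220 and 292 CPM in the fresh libraries and 383, 506 and 382 CPM in the preconditioned libraries. All 3 preconditioned libraries were above all 3 fresh libraries, on the TMM scale and in FPKM (168, 171 and 228 against 272, 339 and 267). The mean was 1.74-fold higher in the preconditioned group (95% interval 1.31 to 2.32), or 0.80 ± 0.17 on the log2 scale (estimate and standard error, edgeR adjusted p = 0.048). The adjusted p was close to the threshold. Leaving out any of the libraries other than preconditioned replicate 1 gave 0.0823 to 0.166, and DESeq2 gave 0.0019. The edgeR value was 0.021 without preconditioned replicate 1, 0.056 with the total count as the scaling and 0.109 with the replicate number as a block.

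CA9 encodes a cell surface carbonic anhydrase that is among the most widely used markers of hypoxia. Its level was 27.5, 30.6 and 32.1 CPM in the fresh libraries and 23.6, 36.4 and 31.7 CPM in the preconditioned libraries. The fresh values lay inside the range of the preconditioned ones. The log2 fold change was 0.02 (95% interval −0.39 to 0.44, adjusted p = 0.94 by edgeR), an interval that ends at a 1.36-fold increase.

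ADM encodes adrenomedullin, a peptide that dilates vessels and acts on endothelium. Its level was 17, 20.6 and 33.3 CPM in the fresh libraries and 22.9, 37.7 and 29.4 CPM in the preconditioned libraries, so that the groups overlapped. It differed by 0.34 on the log2 scale (95% interval −0.34 to 1.02, adjusted p = 0.45 by edgeR). The genes of its receptor were low. CALCRL, whose difference was noticed after its values were seen, had 2.55, 4.05 and 7.47 CPM in the fresh and 0.639, 2.46 and 0.560 CPM in the preconditioned libraries (log2 fold change −1.94, adjusted p = 0.11 by edgeR). RAMP2, which pairs with it, had 0.348 to 2.13 CPM over the 6 libraries.

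**Figure D2:**
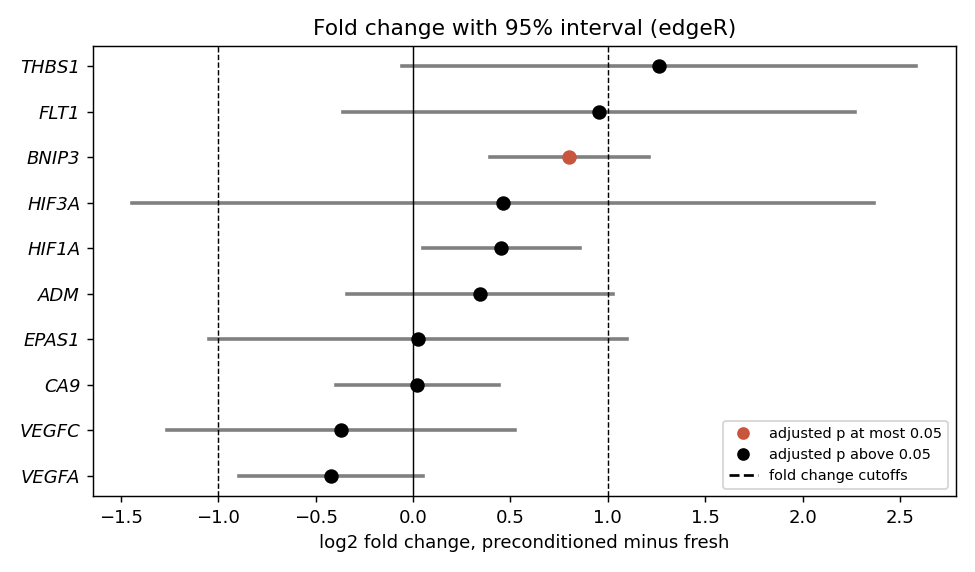
Log2 fold change of each gene, preconditioned minus fresh, as a point with its 95% interval from edgeR's quasi-likelihood test. Dashed lines mark the fold change cutoffs of −1 and 1, and the only red point, BNIP3 at 0.80, is the gene with an adjusted p of at most 0.05.

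VEGFA, the main inducer of blood vessel growth, was the third most abundant of the 10 genes by mean FPKM. Its level was 519, 509 and 570 CPM in the fresh libraries and 524, 363 and 306 CPM in the preconditioned libraries. Preconditioned replicate 1 was within the fresh range, and the other preconditioned libraries were below it. The log2 fold change was −0.42 (95% interval −0.89 to 0.05, standard error 0.20, adjusted p = 0.20 by edgeR).

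The value for VEGFA moved both ways with single libraries. Without preconditioned replicate 1, the log2 fold change was −0.68 with an adjusted p of 0.014 by edgeR, still short of the fold change cutoff, and without preconditioned replicate 3 it was −0.26 (adjusted p = 0.41). In FPKM, all 3 preconditioned libraries (161, 106 and 92.7) lay below the fresh libraries (174, 172 and 193). With the total count as the scaling, 38.8% of all tested genes did not overlap between the groups, as was the case for VEGFA and BNIP3 among the 10 genes.

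VEGFC, which acts on lymphatic endothelium, was much lower, at 3.75 ± 1.24 and 2.57 ± 0.977 FPKM (SD, n = 3 each). Its level was 6.23, 10.4 and 5.91 CPM in the fresh libraries and 6.88, 7.32 and 3.23 CPM in the preconditioned libraries. The groups overlapped, with preconditioned replicate 3 the lowest of all. On the log2 scale, it differed by −0.37 (95% interval −1.26 to 0.52, adjusted p = 0.54 by edgeR), and by as little as −0.066 without fresh replicate 2 and −0.078 without preconditioned replicate 3.

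BNIP3 and VEGFA, both HIF targets, had similar FPKM in fresh cells and different FPKM in preconditioned cells. The ratio of BNIP3 to VEGFA within a library was 0.964, 0.997 and 1.18 in the fresh libraries and 1.69, 3.21 and 2.88 in the preconditioned libraries, on the FPKM scale. The groups did not overlap, and the mean log2 ratio was 0.06 ± 0.16 in the fresh and 1.32 ± 0.50 in the preconditioned group (SD, n = 3 each). This pair was chosen after its values were seen, so the ratio is given without a test. In FPKM, all preconditioned libraries lay above the fresh ones for BNIP3 and below them for VEGFA. The lack of overlap in the ratio follows from this choice and adds nothing to the values of each gene.

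FLT1 encodes VEGF receptor 1, which binds VEGFA and is found on endothelium and monocytes and, as a secreted form, in the corneal epithelium. It was close to the limit of detection, with 23, 26 and 49 counts in the fresh libraries and 23, 79 and 64 counts in the preconditioned libraries. Preconditioned replicate 1 had as few counts as the lowest fresh library, while the other preconditioned libraries were above all fresh ones. Its log2 fold change was 0.96, close to the cutoff, with a wide 95% interval (−0.36 to 2.27, adjusted p = 0.28 by edgeR). On the scales log2(FPKM + 1) and log2(FPKM + 0.1), where the pseudocount is near or above its FPKM, the difference was 0.11 and 0.44.

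THBS1 encodes thrombospondin 1, a matrix protein that inhibits endothelial growth and activates TGF-β. Its level was 52.8, 59.7 and 156 CPM in the fresh libraries and 134, 364 and 145 CPM in the preconditioned libraries. Preconditioned replicate 2 was the highest by far, and fresh replicate 3 lay above the other preconditioned libraries, so that the groups overlapped. THBS1 had the largest log2 fold change of the 10 genes, 1.26, but also a standard error of 0.55 (95% interval −0.06 to 2.58, adjusted p = 0.18 by edgeR). Without preconditioned replicate 2, the log2 fold change was 0.65 (adjusted p = 0.47), and without fresh replicate 3 it was 1.93 (adjusted p = 0.11).

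VEGFA was also set against THBS1 and FLT1 within each library. The ratio of VEGFA to THBS1 counts was 9.82, 8.53 and 3.66 in the fresh libraries and 3.91, 0.997 and 2.11 in the preconditioned libraries. Of the preconditioned libraries, only replicate 1 exceeded a fresh library, namely replicate 3, and the mean log2 ratio was 2.75 ± 0.769 against 1.01 ± 0.988 (SD, n = 3 each), a difference of −1.74 (exact permutation test, 2-sided, p = 0.20, adjusted p = 0.40). The ratio of VEGFA to FLT1 counts was 762, 683 and 421 in the fresh libraries and 733, 143 and 144 in the preconditioned libraries, a mean log2 difference of −1.29 (exact permutation test, 2-sided, p = 0.30, n = 3 each, adjusted p = 0.40). Both ratios were lower on average in the preconditioned group, in neither case beyond the overlap between libraries.

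**Figure D3:**
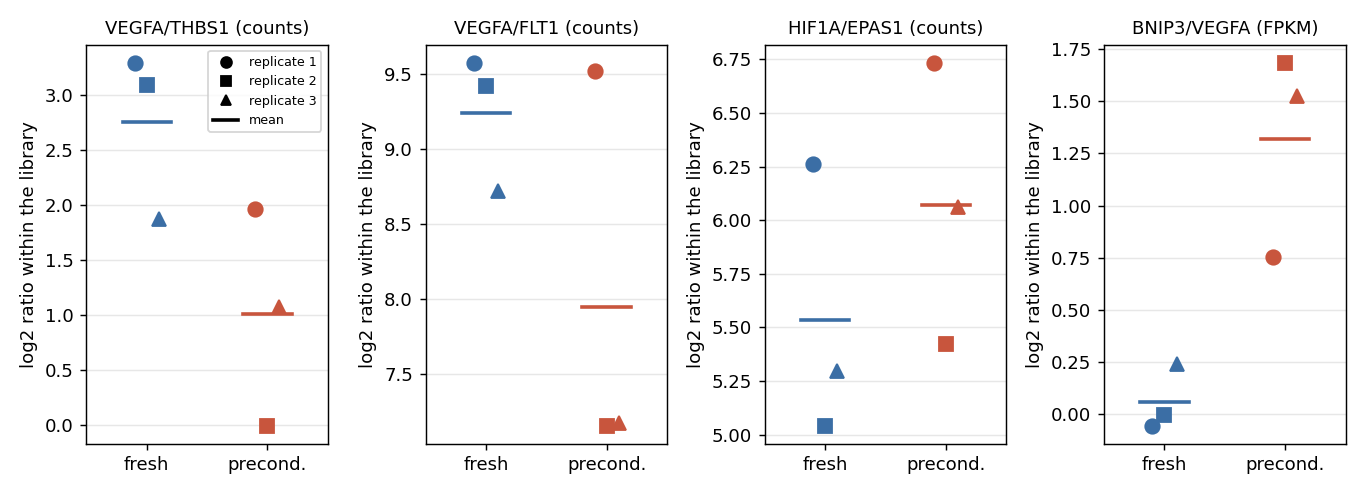
Log2 ratios of gene pairs within each library, from counts for VEGFA/THBS1, VEGFA/FLT1 and HIF1A/EPAS1 and from FPKM for BNIP3/VEGFA, with 1 point per library (blue fresh, red preconditioned) and a bar at the group mean; each panel has its own axis. The groups overlap in the first 3 panels and are apart in the last, where the fresh mean is 0.06 and the preconditioned mean 1.32. The last pair was chosen after its values were seen, and its gap follows from the gap of each gene in FPKM.

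By mean FPKM, the order of the 10 genes was HIF1A, BNIP3, VEGFA, THBS1, ADM, EPAS1, CA9, VEGFC, FLT1 and HIF3A. Neighbours in this order overlapped in their ranges over the 6 libraries, except HIF1A with BNIP3, VEGFA with THBS1, and VEGFC with FLT1. Split at these gaps, the order gave HIF1A alone (396 to 669 FPKM), BNIP3 and VEGFA (92.7 to 339 FPKM), a middle group from THBS1 to VEGFC (1.44 to 57.6 FPKM), and FLT1 with HIF3A (0.0197 to 0.327 FPKM). Within the middle group, THBS1 (9.64 to 57.6 FPKM) and ADM (11.8 to 23.3 FPKM) lay wholly above CA9 (4.33 to 6.50 FPKM) and VEGFC (1.44 to 5.18 FPKM).

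The rank of each library is described for the 10 genes only, as the same counts over all tested genes were not made. Preconditioned replicate 2 had the highest level of all 6 libraries for 8 of the 10 genes, the exceptions being VEGFA and VEGFC. Among the fresh libraries, replicate 3 was the highest for 8 genes. Preconditioned replicate 1 was the lowest of the preconditioned libraries for 7 genes. The summed CPM of 10 genes of stromal fibroblasts and keratocytes was also highest in preconditioned replicate 2, with 623, 1209 and 1566 CPM in the fresh and 1377, 2744 and 1316 CPM in the preconditioned libraries. FN1 was the main contributor, with 1812 CPM in preconditioned replicate 2. FN1, COL3A1, DCN, LUM and PDGFRA were highest in that library, and COL1A2, POSTN, KERA, PDGFRB and THY1 in others. Within the fresh group the stromal sum was ordered like THBS1 and 5 others of the 10 genes. The share of all tested genes with this order was not counted. The lowest preconditioned library was replicate 3 for the stromal sum and replicate 1 for THBS1. The part of stromal RNA in these orders was not tested. None of these 10 stromal genes was called by edgeR.

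**Figure D4:**
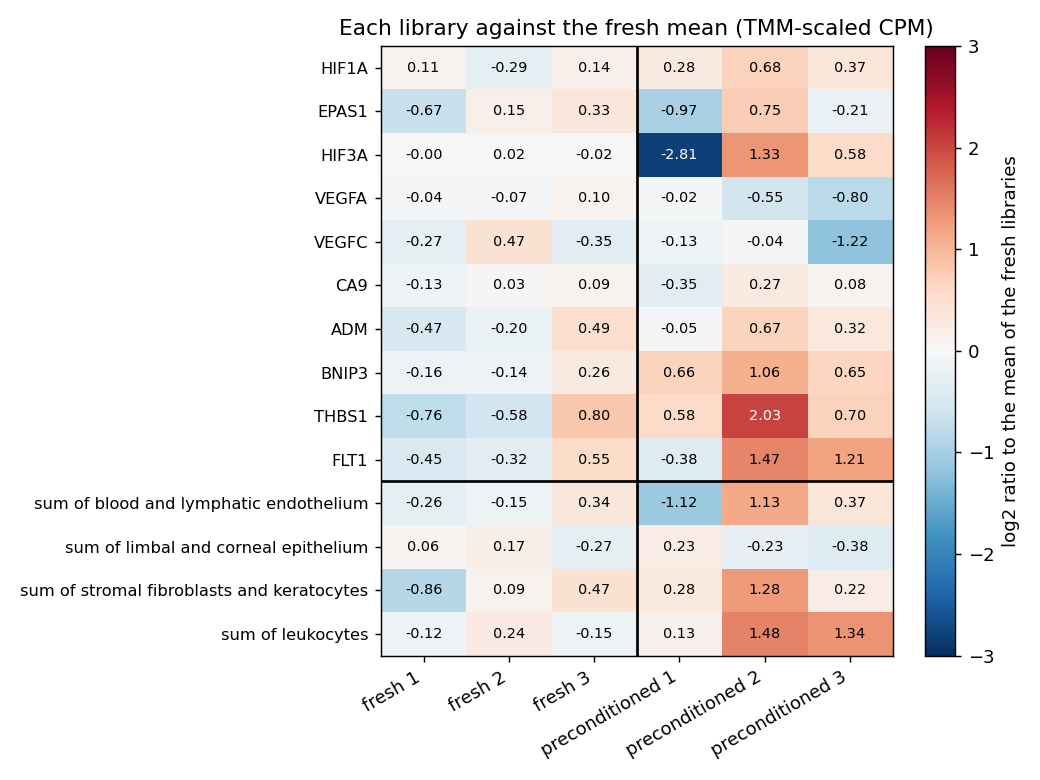
Log2 ratio of each library to the mean of the fresh libraries, on TMM-scaled CPM, for the 10 genes (above the line) and for the summed CPM of 4 lists of cell type markers (below it). Preconditioned replicate 2 is red for most genes, up to 2.03 for THBS1, and for the sums of the stromal, endothelial and leukocyte lists.

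Sums of endothelial, leukocyte and conjunctival markers were also highest in preconditioned replicate 2, as were FLT1 and HIF3A. Other sums were not. That of pericyte and smooth muscle genes was highest in preconditioned replicate 1 (151.5, 87.4 and 52.1 CPM in preconditioned replicates 1, 2 and 3). That of melanocyte genes was highest in preconditioned replicate 3 (2.71, 5.18 and 6.39 CPM). The summed CPM of 14 endothelial genes was 6.35 to 9.60 in the fresh libraries and 3.50, 16.6 and 9.81 in the preconditioned libraries. The highest sum was largely PECAM1, a gene that leukocytes and platelets also express, with 2.30 to 2.99 CPM in the fresh and 0.882, 12.8 and 4.97 CPM in the preconditioned libraries, while LYVE1, ROBO4 and TEK had at most 3 counts in every library. The other 4 tested endothelial genes had negative log2 fold changes, with a median of −0.27 over all 5, and PROX1 was lower in all preconditioned libraries (0.791, 0.192 and 0.691 CPM) than in the fresh ones (1.07 to 1.22 CPM). HIF3A had 0.638, 0.647 and 0.629 CPM in the fresh libraries, from 22, 23 and 23 counts, too few to compare with the endothelial sum. The summed CPM of 8 leukocyte genes was 104 to 137 in the fresh libraries and 127, 324 and 294 in the preconditioned libraries, where CD68, a lysosomal protein that other cells express too, was the main contributor and CD3E had at most 3 counts in every library. The 11 epithelial genes found summed to 14520 to 19740 CPM in the fresh and 13430 to 20520 CPM in the preconditioned libraries. The part of stromal, endothelial or leukocyte RNA in the values of THBS1, FLT1, HIF3A and EPAS1 was not tested.

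Other genes of these pathways were followed in 6 lists with 108 genes, of which 103 were in the table and 93 were tested. Of the 93, 3 were called (3.23%, against 2.29% of all tested genes), 2 higher and 1 lower in the preconditioned group, and 36 had groups that did not overlap (38.7%, against 36.7%). Without preconditioned replicate 1, 11 genes of the lists were called (SLC2A1, TPI1, FGFR2, CREBBP, COL18A1, ERO1A, HMOX1, NDRG1, NRP1, PDGFB and STC2), and none was called when any other library was left out, where the calls over all genes fell from 344 to 14 to 72. DESeq2 on all libraries also called 11, namely SLC2A1, TPI1, FGFR2, CALCRL, EDN1, HMOX1, NDRG1, NRP1, PDGFB, SERPINF1 and STC2. The log2 fold changes of the 3 genes called by edgeR changed less, with 1.19 to 1.54 for SLC2A1, 0.98 to 1.22 for TPI1 and −1.41 to −1.03 for FGFR2 over the 6 fits.

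Of the partners and oxygen sensors of HIF, none of the 13 tested genes was called, and the median log2 fold change was −0.08. The groups did not overlap for 6 of them (46.2%, against 36.7% of all tested genes), 3 higher and 3 lower. ARNT, the partner of the alpha subunits, had 67.5 CPM on average in the fresh and 69.1 CPM in the preconditioned group, with a log2 fold change of 0.03. The prolyl hydroxylase genes EGLN1, EGLN2 and EGLN3 had log2 fold changes of −0.08, 0.16 and −0.27, with adjusted p values of 0.38 to 0.65 by edgeR. The lowest p values in the list were those of EP300 and CREBBP, which encode the acetyltransferases that HIF recruits. EP300 had 124, 141 and 154 CPM in the fresh and 102, 93.5 and 88.4 CPM in the preconditioned libraries (log2 fold change −0.56, adjusted p = 0.048 by edgeR), and CREBBP had 60.5, 73.0 and 82.7 CPM and 49.9, 34.7 and 35.9 CPM (log2 fold change −0.84, adjusted p = 0.049). Both were lower in all preconditioned libraries but did not reach the fold change cutoff.

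The targets of HIF with a role in glycolysis held both of the genes called as higher, 2 of 16 tested, where 1.08% of all tested genes were called higher. SLC2A1, the glucose transporter GLUT1, had 1857, 1535 and 2157 CPM in the fresh libraries and 3239, 5686 and 5172 CPM in the preconditioned libraries, and rose 2.54-fold (95% interval 1.72 to 3.74, adjusted p = 0.038 by edgeR). TPI1, a glycolytic isomerase, had 680, 730 and 840 CPM and 1209, 1748 and 1764 CPM, and rose by 1.07 on the log2 scale (95% interval 0.65 to 1.49, adjusted p = 0.036 by edgeR). All preconditioned libraries lay above all fresh ones for both genes, but TPI1 was no longer called with the total count as the scaling. Neither gene was called with the replicate number as a block, nor when any library other than preconditioned replicate 1 was left out. Of the 16 tested genes of the list, 14 had a positive log2 fold change (against 50.5% of all tested genes), 9 did not overlap between the groups (56.2%, against 36.7% of all tested genes), and the median was 0.43. The count of positive genes and the median include LDHA, which had the highest log2 fold change of the list, 1.53. Per length, both were more abundant than HIF1A, with 824 and 1854 FPKM for SLC2A1 and 608 and 1131 FPKM for TPI1 in the fresh and preconditioned groups.

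LDHA, which makes lactate, was not read from its own row alone, a choice made only after its values were known. Its level ran from 39.1 to 982 CPM in the fresh and from 82.0 to 2513 CPM in the preconditioned libraries. A second row with the same description, LOC100009107, had 2209 to 4162 and 1909 to 5232 CPM, and the libraries with little of one had much of the other. Their sum was 4201, 3906 and 3190 CPM in the fresh and 4422, 4268 and 5314 CPM in the preconditioned libraries, and whether reads were divided between these rows was not tested. No other row had the same description as any of the 10 hypoxia and angiogenesis genes.

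Of the 22 tested HIF targets outside glycolysis, none was called, 17 had a positive log2 fold change (against 50.5% of all tested genes) and 12 did not overlap between the groups (54.5%, against 36.7%), with a median of 0.46. P4HA1, a collagen prolyl hydroxylase, had 51.8, 45.8 and 58.7 CPM in the fresh and 75.1, 107 and 79.9 CPM in the preconditioned libraries (log2 fold change 0.75, adjusted p = 0.051 by edgeR). DDIT4, a stress-induced inhibitor of mTOR, differed in the other direction, with 100, 135 and 99.1 CPM in the fresh and 64.9, 64.8 and 52.1 CPM in the preconditioned libraries (log2 fold change −0.88, adjusted p = 0.039 by edgeR), under the fold change cutoff. The largest difference in the list, singled out after its values were seen, was that of HMOX1, the haem oxygenase that many stresses besides hypoxia induce. It had 41.6, 45.7 and 68.5 CPM in the fresh and 109, 598 and 223 CPM in the preconditioned libraries, and its log2 fold change of 2.58 had an adjusted p of 0.057 by edgeR.

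**Figure D5:**
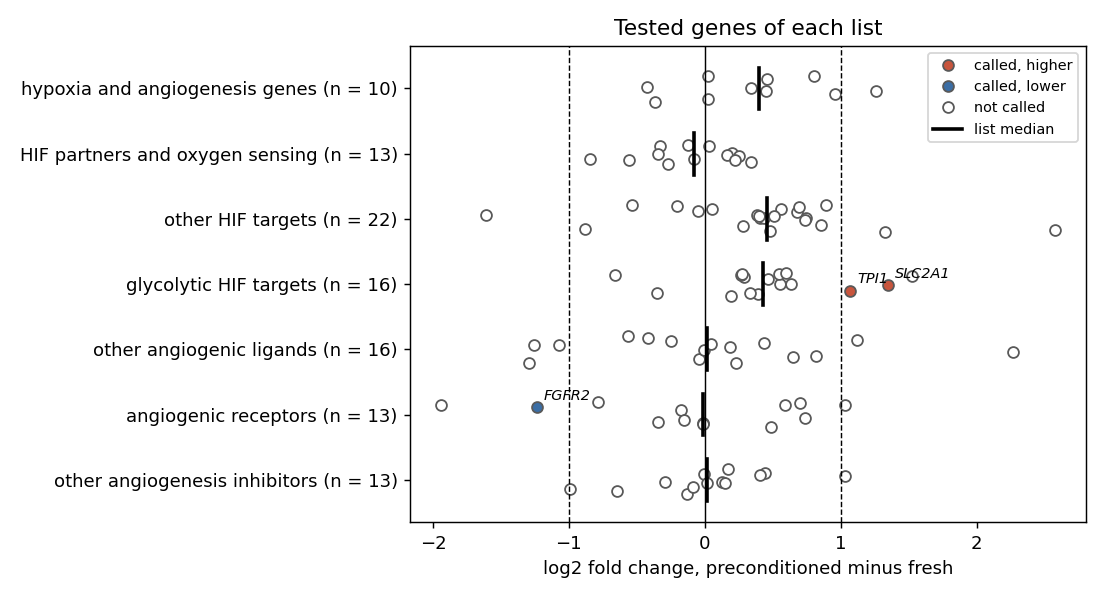
Log2 fold change of every tested gene, preconditioned minus fresh, in the 10 hypoxia and angiogenesis genes and in 6 lists of related genes, with the list median as a bar. Filled points are the 3 called genes, SLC2A1 and TPI1 (higher) and FGFR2 (lower), and the medians of both lists of HIF targets, 0.46 and 0.43, lie to the right of 0.

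Other ligands, receptors and inhibitors of angiogenesis showed no common direction. Of 16 tested ligands, none was called and the median log2 fold change was 0.02. The share of genes whose groups did not overlap was 18.8% for the ligands and 23.1% each for the receptors and the other inhibitors, against 36.7% of all tested genes. The lowest p values were those of PDGFB, which attracts pericytes, with 0.883 ± 0.546 and 4.27 ± 3.20 CPM (log2 fold change 2.27, adjusted p = 0.080 by edgeR), and of EDN1, a vasoconstrictor, with 3.12 ± 0.562 and 1.48 ± 0.346 CPM (SD, n = 3 each; log2 fold change −1.07, adjusted p = 0.083). Of 13 tested receptors, FGFR2, an epithelial receptor for keratinocyte growth factors, was called. It had 27.1, 28.7 and 33.6 CPM in the fresh and 13.6, 8.86 and 15.5 CPM in the preconditioned libraries, and fell to 0.424 of the fresh level (95% interval 0.294 to 0.613, adjusted p = 0.039 by edgeR). NRP1, a co-receptor of VEGFA named here after its values were seen, lay just outside the threshold, at 10.7 and 21.9 CPM (log2 fold change 1.03, adjusted p = 0.0505 by edgeR).

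Of the 13 tested inhibitors besides THBS1, none was called and the median log2 fold change was 0.01. COL18A1, the collagen from which endostatin is cleaved, had 52.1, 74.0 and 45.1 CPM in the fresh and 34.7, 22 and 29.5 CPM in the preconditioned libraries (log2 fold change −0.99, adjusted p = 0.055 by edgeR). SEMA3F, a semaphorin that repels endothelial cells, had 143 ± 24.9 and 91.4 ± 15.6 CPM (SD, n = 3 each; log2 fold change −0.64, adjusted p = 0.071). SERPINF1, the gene of the inhibitor PEDF, named after its values were seen, had 6.23, 6.72 and 8.64 CPM in the fresh and 11.3, 23.4 and 9.52 CPM in the preconditioned libraries (log2 fold change 1.03, adjusted p = 0.11 by edgeR).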

How the data were processed

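RNA-seq was available for 3 fresh and 3 preconditioned libraries, grouped by their sample titles. The authors aligned reads with hisat2 and deposited the unnormalised, whole-number counts that htseq-count gave for each gene. The build, the annotation and the strand setting are not given in the sources used here, so no coordinates are printed. The authors also deposited FPKM, which equals each count divided by the total count on genes and 1 length per gene. For RNA extraction, the sample records name TRIzol and the methods an Omega kit.

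The count test was edgeR 4.0.16 in R 4.3.3 (filterByExpr, TMM, robust quasi-likelihood test, Benjamini-Hochberg adjustment over 15029 genes). CPM values are TMM-scaled. The study's cutoffs were used for calls (adjusted p up to 0.05, log2 fold change of 1 or more in either direction). Standard errors and 95% intervals were derived from the F statistic. Ratios of counts used a pseudocount of 0.5 and exact permutation tests. The fits were tested on simulated counts. Depth was similar in all libraries, so that precision rests on the spread between libraries and, for HIF3A and FLT1, on their few counts.

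The alternatives were DESeq2 1.42.0, other scalings, filters and cutoffs, limma 3.58.1 on log2(FPKM + 1) and log2(FPKM + 0.1), the replicate number as a block, and leaving out each library. From each pathway list, up to 3 called genes in each direction were to be named, or, with none called, the 2 with the lowest p. The genes, lists and tests were chosen with earlier results of these data known.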

Additional observations from a re-analysis of the deposited data

How the results depend on the processing

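The number of calls depended on the test, the scaling and single libraries. Over all tested genes, 344 were called, against 1190 with DESeq2, 565 when scaled by library size alone, 590 with limma on log2(FPKM + 0.1), 763 with no fold change cutoff, 30 with a replicate block, and 14 to 1546 when each library was left out, the highest number without preconditioned replicate 1. With library size alone, the median log2 fold change of all genes moved to −0.16 and 25.1% of the calls were higher, against 47.4%, and the limma fits on log2(FPKM + 1) and log2(FPKM + 0.1) gave 27.2% and 23.9%. Of the 10 hypoxia and angiogenesis genes, 1 was called with DESeq2 (THBS1) and 1 with no fold change cutoff (BNIP3), and none under the other alternatives. The replicate block moved the adjusted p of BNIP3 to 0.109 and changed no call of these genes. Of the other pathway genes, 3 were called, against 11 with DESeq2, 5 with library size alone, 6 with no fold change cutoff, 6 with limma on log2(FPKM + 0.1), 0 with the replicate block, and 0 to 11 when each library was left out.

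Libraries of the same number did not deviate together (correlations of −0.084, −0.086 and −0.129 across genes), so the numbers are not taken as pairs. Of 139 alternative log2 fold changes of the 10 genes, 14 changed sign, all for genes near 0 or with few counts. EPAS1 was at −0.16 with library size alone, −0.08 with the replicate block, −0.21 and −0.25 with limma on log2(FPKM + 1) and log2(FPKM + 0.1), and, leaving out 1 library, at −0.54 to 0.34. CA9 was at −0.15 with library size alone, −0.14 and −0.16 with the limma fits, and at −0.12 to 0.17 leaving out 1 library. HIF3A was at −0.012 with limma on log2(FPKM + 0.1) and at −0.29 to 0.99 leaving out 1 library, and had no value with a filter of at least 1 CPM in 3 libraries. The cause was not tested. Among the genes that kept their sign, leaving out 1 library gave −0.68 to −0.26 for VEGFA, −0.57 to −0.066 for VEGFC, 0.15 to 0.67 for ADM, 0.65 to 1.93 for THBS1 and 0.62 to 1.34 for FLT1. All 3 ratios kept their sign under all 9 alternatives, and leaving out 1 library the differences ran from −2.22 to −1.23 for VEGFA to THBS1, −2.07 to −0.89 for VEGFA to FLT1 and 0.21 to 0.90 for HIF1A to EPAS1, with exact p values that cannot pass 0.05 in this design.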

Other observations

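Of the markers of other cell types, 1 was called, which was noticed only after its values were seen. It was 1 of 5 tested pericyte and smooth muscle genes. None was called of 5 endothelial, 4 conjunctival, 10 stromal, 7 leukocyte and 2 melanocyte genes tested, where 2.29% of all tested genes were called. RGS5, a regulator of G protein signalling known as a marker of pericytes, had 0.956, 0.619 and 0.793 CPM in the fresh libraries and 54.4, 31.8 and 2.86 CPM in the preconditioned libraries (log2 fold change 5.23, adjusted p = 0.045 by edgeR). The groups did not overlap, but the preconditioned libraries differed widely. The other pericyte and smooth muscle genes were not called, with ACTA2 at 88.4, 38.5 and 32.4 CPM in the preconditioned and 15.4 to 48.2 CPM in the fresh libraries, and DES had at most 1 count in every library.

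NDRG1, a stress-induced HIF target singled out in the same way, had 237, 169 and 378 CPM in the fresh and 393, 757 and 814 CPM in the preconditioned libraries. All preconditioned libraries lay above the fresh ones, and the log2 fold change of 1.33 had an adjusted p of 0.075 by edgeR.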
